A study of Mus musculus with 39 samples.

Results

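The highest and the lowest dose of the plant formulation KAL-1 were compared in brown fat of mice on a fattening diet. The members were the 12 arrays of the groups HF75 and HF5 at Week 3, 6, 9, 12, 15 and 18, of 39 arrays in the series, with 6 arrays a dose and 1 array per dose and week. Diet and time point in the labels chose them, and no array of another diet enters the difference. The mice were C57BL/6J, were divided into diets after weaning, and all ate the same high fat, high sucrose diet. HF75 mice received 75 µg and HF5 mice 5 µg of KAL-1 with it. Animals of each diet were sacrificed every 3 weeks, and the labels do not say whether an array holds 1 animal or a pool. The 2 doses were hence compared over weeks, with each week as a pair, and the p-values measure the spread between these arrays only. The labels call the material brown infiltrating macrophages (SVCs).

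Brown fat burns fuel to make heat through uncoupling protein Ucp1, which lets protons leak back across the inner mitochondrial membrane. Its stromal vascular cells are the cells other than mature adipocytes, and they include macrophages, lymphocytes, endothelial cells and preadipocytes. Macrophages that enter fat during overfeeding are known for secreting inflammatory cytokines, and thyroid hormone and noradrenaline are known to drive the thermogenic program.

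Levels are given on a log2 scale as the processed signal of a probe minus the 75th percentile of the same array, so a level of 0 means that percentile. Differences are HF75 minus HF5 on this scale, so 1 is a 2-fold higher level in HF75. Each gene was read from its brightest probe. The test covered 21756 probes of 16431 genes that were well above background on 6 or more of the 12 arrays.

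The labelled cell type was checked against marker genes first. Macrophage genes were measured on all 12 arrays. Emr1, the macrophage surface protein F4/80, had levels of 0.09, 1.59 and 4.15 (lowest, median and highest) in HF5 and of 0.55, 2.0 and 3.08 in HF75. Genes of brown adipocytes were also measured on all 12. Ucp1 ran from 4.69 over a median of 6.38 to 8.16 in HF5 and from 5.71 over 6.57 to 8.55 in HF75. Adipoq, the adipocyte hormone adiponectin, had medians of 5.33 in HF5 and 4.27 in HF75. The arrays thus carried adipocyte RNA beside macrophage RNA, at both doses. In such bulk RNA, fewer cells of a type and less RNA per cell cannot be told apart.

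Some arrays stood apart. The titles of 3 of the 12 carry BA or BAT where the others have B-A or B_A. They are HF5 at Week 9 and both doses at Week 15. They were the brightest, with a 75th percentile signal of 735 to 1076 against 21.9 to 189 on the other 9, and 461 to 760 of the 16431 genes were saturated on them against 2 to 15 on the others. On these 3 arrays the median level of the brown adipocyte list was 3.06 to 4.17, and on the other 9 it was -0.30 to 1.35. Week 15 therefore compared 2 arrays of this kind, and Week 9 compared 1 of them with an array of the other kind. The HF5 array of Week 12 had 18.6% of its spots marked as outliers, against 0.114% or less on the other 11, so 18466 of the 21756 probes tested had a Week 12 difference, and 3344 probes lacked 1 or more weeks and were fitted on the rest. Both doses were scanned on the same date at Weeks 12 and 15 only, and no slide held both doses.

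The size of the difference varied from week to week. At Week 3, 14% of genes were 2-fold or more higher in HF75 and 14.1% were 2-fold or more lower. At Week 6 these shares were 2.31% and 7.94%, and their sum was the smallest of the 6 weeks. At Week 9 they were 29.6% and 22.3%. The widest split lay at Week 12, where 65.7% were higher and 5.36% lower, and the median of all genes was 1.42. At Week 15 the shares were 12.8% and 6.02%, and at Week 18 they were 17.8% and 28.6% with a median of -0.59. The medians of Weeks 3, 6, 9 and 15 lay between -0.07 and 0.08, so the shift of all genes at Weeks 12 and 18 should be set beside any list at those weeks. Arrays of 1 dose at different weeks differed as much. Among probes well above background on both arrays of a pair, 12.7% to 85.6% differed 2-fold or more between weeks in HF5 and 17.3% to 67.9% in HF75, against 7.68% to 70.0% between the doses of 1 week.

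**Figure D1:**
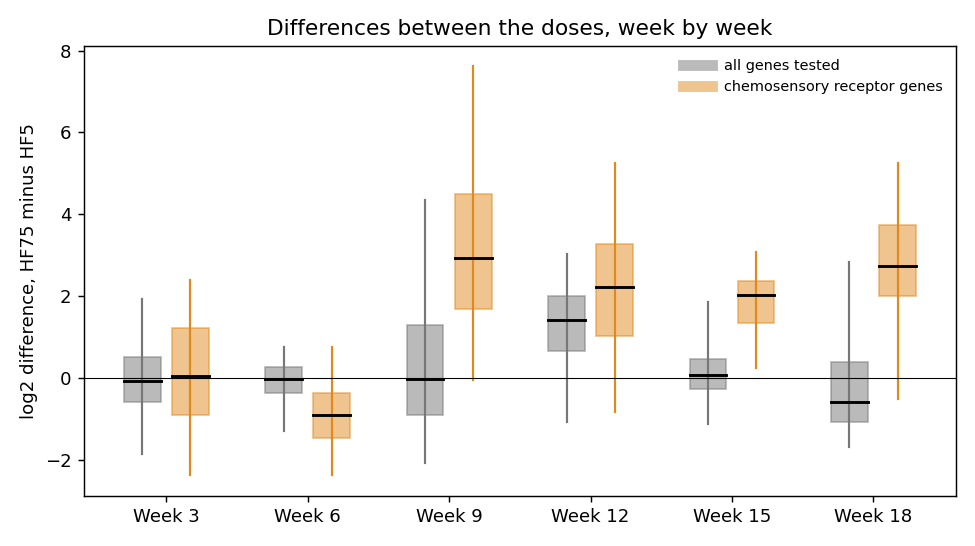
The vertical axis gives the log2 difference HF75 minus HF5 at each week, with boxes from the 25th to the 75th percentile, whiskers from the 5th to the 95th, and a black line at the median, for all genes tested (grey) and for chemosensory receptor genes (orange). The grey boxes centre on 0 at 4 weeks, at 1.42 at Week 12 and at -0.59 at Week 18. The orange genes are the 154 that passed the filter, and their medians lie above the grey ones at every week but Week 6. Over all 1354 on the array, not drawn, the medians were below those of all genes on the array at Weeks 3, 6 and 12.

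The first question was which genes differed between the doses over the 6 weeks. No probe passed. With limma and the week as a block, 0 of 21756 probes (0%) had an adjusted p under 0.05, with 0.104 as the lowest adjusted p. Before adjustment, 1453 probes had p under 0.05. By genes, 6.62% were higher in HF75 at that level and 0.615% were lower. These calls were most frequent among dim genes. The genes were divided by signal level into 4 bins of 4107 or 4108 genes. From the dimmest to the brightest bin, 518, 331, 174 and 65 were higher, and 69, 17, 11 and 4 were lower. The same sign in all 6 weeks was found for 279 of the 14028 genes measured in every week on the higher side, or 1.99%, and for 98, or 0.699%, on the lower side. By the same bins, dimmest first, these were 133, 84, 41 and 21 genes higher and 49, 36, 12 and 1 lower. The median standard error of a difference was 0.46, and its 95% interval reached 0.99 to either side for the median probe, close to the 1 of a 2-fold change. The count depended on 1 pair of arrays and on the filter. Without Week 6, 327 probes passed, all of them higher in HF75, and among the 10589 probes well above background on all 12 arrays 123 passed, again all higher.

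The probe with the smallest p belonged to Prl2a1, a member of the prolactin family that is known from the placenta. It had levels of -7.19, -5.33 and -3.15 (lowest, median and highest) in HF5 and of -4.78, -1.76 and 1.1 in HF75, a difference of 3.40 with an SE of 0.45 (limma adjusted p 0.104). The difference was above 0 in all 6 weeks, but the probe was well above background on only 1 of 6 HF5 arrays, so it fell outside the rule for named genes.

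Of the 279 genes higher and the 98 lower in HF75 in all 6 weeks, 147 and 42 were well above background on 10 or more arrays. Those with the smallest p are given here, 10 on the higher side and 9 of the 10 on the lower, and none of them passed. On the higher side, 4 were receptors. Adora2a, an adenosine receptor, had levels from -1.01 over a median of 0.63 to 1.72 in HF5 and from 0.55 over 2.88 to 4.37 in HF75. The difference was 2.23 (SE 0.48, limma adjusted p 0.312), and the groups overlapped. Its other probe differed by 0.67. Over the same weeks its level was 2.0 ± 1.06 in the middle dose HF20 (SD, n = 5), 0.57 ± 1.51 on the high fat diet alone (HFC, n = 6) and 0.21 ± 1.56 on the low fat diet (LFC, n = 5). The mean was 0.45 ± 1.29 in HF5 (n = 6) and 2.68 ± 1.39 in HF75 (n = 6). HF75 and HF20 had the highest means, and the ranges of 1 SD around the means of all 5 diets overlapped. Gpr37l1, an orphan receptor known from glial cells, ran from -2.50 over 0.24 to 4.07 in HF5 and from -2.00 over 2.46 to 5.01 in HF75, a difference of 2.03 (SE 0.48). V1ri6, a vomeronasal pheromone receptor, ran from -5.49 over -3.05 to 0.46 in HF5 and from -1.61 over 1.5 to 3.68 in HF75, a difference of 3.85 (SE 0.78). Olfr1495, an olfactory receptor, ran from -5.66 over -3.09 to 0.97 in HF5 and from -4.44 over 0.39 to 3.83 in HF75, a difference of 2.77 (SE 0.63). Olfr1495 was lowest in HF5 at Week 15 and V1ri6 in HF5 at Week 12, and both were highest in HF75 at Week 18.

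The other 6 genes on the higher side came from unrelated classes. Slc15a2, a transporter that takes up small peptides, ran from -5.54 over -2.58 to 0.02 in HF5 and from -2.46 over 1.76 to 3.10 in HF75, a difference of 3.60 (SE 0.63, limma adjusted p 0.305). The further 2 probes of Slc15a2 differed by 0.98 and 1.12. Its level was 0.35 ± 2.51 in HF20 (SD, n = 5) and -1.02 ± 3.16 in HFC (n = 6). Hbb-y, an embryonic haemoglobin chain, differed by 2.90 (SE 0.54), and its weekly differences ran from 0.26 at Week 6 to 4.73 at Week 9. Vav2, an exchange factor for small GTPases, differed by 2.79 (SE 0.59), from 1.00 at Week 6 to 6.20 at Week 9. Ptn, the secreted growth factor pleiotrophin, differed by 2.21 (SE 0.48), with its largest difference, 4.43, at Week 3. Creb3l3, a membrane-bound transcription factor of liver, differed by 2.30 (SE 0.54) and Adap2, which acts on Arf GTPases, by 2.11 (SE 0.50). For all 10 genes the Week 6 difference was 1.67 or less, and for 9 of the 10, all but Ptn, it was 1.00 or less. In each of the 10 the HF5 and HF75 levels overlapped when weeks were mixed. Slc15a2, Ptn and V1ri6 were well above background on 4 of 6 HF5 arrays and on 6 of 6 HF75 arrays. Hbb-y and Creb3l3 were so on 5 HF5 arrays and 6 HF75 arrays, and the remaining genes on all 12. The HF5 levels of these genes thus include arrays near background.

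The genes on the lower side differed less. Dio2, the deiodinase that makes active thyroid hormone inside brown fat cells, had levels from -1.25 over a median of 1.5 to 4.17 in HF5 and from -1.97 over -0.73 to 4.01 in HF75. Its difference was -1.34 (SE 0.45, limma adjusted p 0.470), and by week it was -2.98, -0.57, -2.06, -0.77, -0.16 and -1.48. The highest levels at both doses were the Week 15 arrays with BA in their titles. Dio2 had a level of 0.06 ± 1.44 in HF20 (SD, n = 5), -0.91 ± 1.6 in HFC (n = 6) and 0.39 ± 1.84 in LFC (n = 5), against 1.28 ± 2.21 in HF5 and -0.06 ± 2.25 in HF75 (n = 6 each), so neighbours in the order of the 5 means lay within 1 SD. Ppm1k, the mitochondrial phosphatase that switches on breakdown of branched chain amino acids, ran from -1.14 over -0.14 to 1.57 in HF5 and from -3.15 over -1.18 to -0.29 in HF75. It differed by -1.29 (SE 0.40, limma adjusted p 0.431), and its other probe by -0.71.

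Several others on the lower side are enzymes of basic metabolism. Acads, which starts oxidation of short-chain fatty acids, ran from -1.32 over 1.07 to 4.06 in HF5 and from -1.47 over 0.48 to 3.25 in HF75, a difference of -0.80 (SE 0.39). Gss, which completes glutathione, differed by -0.94 (SE 0.42) and Adsl, of purine synthesis, by -0.78 (SE 0.38). Lnpep, an aminopeptidase of insulin-responsive vesicles, differed by -0.95 (SE 0.40). Rxrb, a retinoid X receptor, differed by -0.78 (SE 0.37), and Optn, an autophagy receptor, by -0.88 (SE 0.42). Wdr77, a partner of the arginine methyltransferase Prmt5, differed by -0.89 (SE 0.39), but its other probe had the opposite sign at 1.44. The smallest limma adjusted p among these 7 genes was 0.660. Gss, Optn, Adsl, Acads and Rxrb had their largest falls at Week 9, with -2.50, -2.28, -1.57, -1.52 and -1.39. There only the HF5 array had BAT in its title. At Week 15, where both titles hold BA, they differed by -0.27, -0.22, -0.38, -0.80 and -0.86. Lnpep fell most at Week 18 (-1.77) and Wdr77 at Week 12 (-1.47). The part of adipocyte RNA in these differences was not tested.

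**Figure D2:**
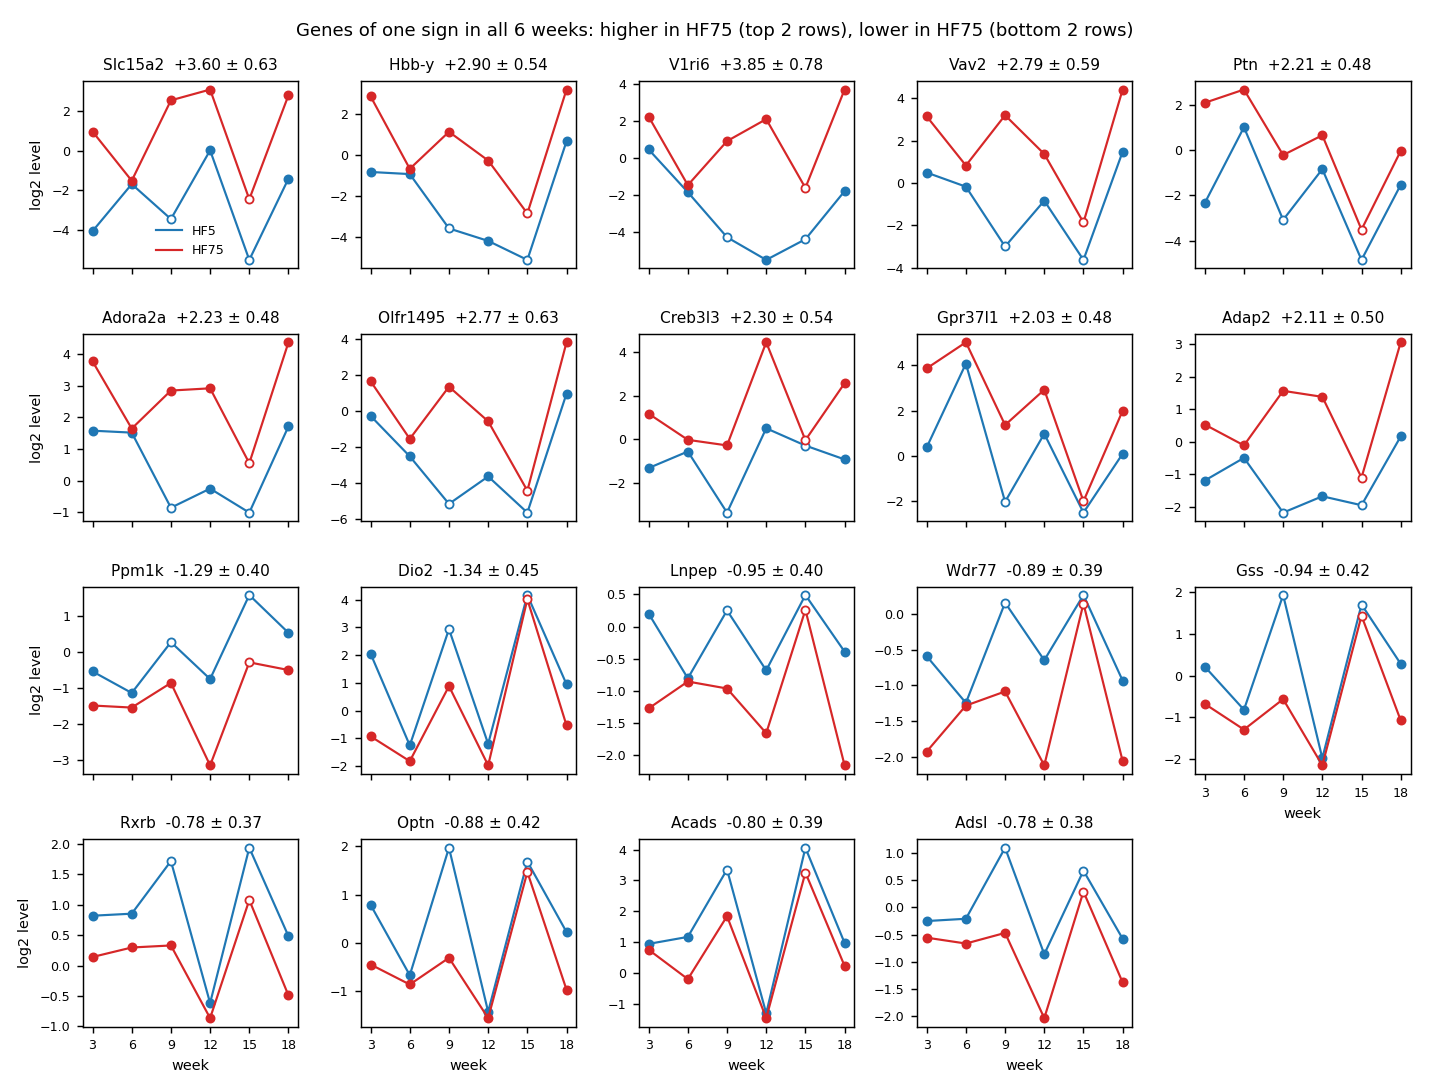
Each panel plots the log2 level of 1 gene (vertical axis) against the week (horizontal axis) in HF5 (blue) and HF75 (red), 1 point per array, with open circles for arrays whose titles hold BA or BAT and the mean difference with its SE above. The red line lies above the blue at all 6 weeks in the top 2 rows and below it in the bottom 2, while the level of most genes moves further between weeks than between doses.

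Lists of genes were then set beside all genes tested, of which 61.4% had a mean difference above 0 and whose median difference was 0.13. No gene of any list passed. Of the macrophage list, 6 of 19 genes tested were higher and 13 lower in HF75, with a median of -0.07. Cd68, a lysosomal protein of macrophages, differed by -0.01 (SE 0.60), Csf1r, the receptor for the macrophage growth factor, by 0.16 (SE 0.52), and Emr1 by 0.01 (SE 0.56). The 95% interval for Emr1 ran from -1.21 to 1.24, so differences up to about 2-fold in either direction remained within it. By week the list median was -1.50, -0.14, 1.47, 1.87, -1.07 and -0.61, with no sign held over the weeks.

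Of the brown adipocyte list, 5 of 17 genes were higher and 12 lower, with a median of -0.24. Ucp1 differed by 0.32 (SE 0.53) and Cidea, a lipid droplet protein of brown fat, by 0.22 (SE 0.59). Both were saturated on the 3 bright arrays, so their levels there are lower bounds. Ppargc1a, a coactivator of mitochondrial genes, differed by -0.24 (SE 0.52), and Adrb3, the adrenergic receptor of fat, by -0.80 (SE 0.53). Dio2 was the 1 gene of this list at an unadjusted p under 0.05. Of the general adipocyte list, 5 of 16 were higher and 11 lower, with a median of -0.26, and 7 to 9 of the 16 were saturated on each bright array. Lipe, hormone-sensitive lipase, had levels from 0.80 over 1.24 to 4.00 in HF5, where the Week 12 array had no value, and from -0.17 over 0.37 to 2.95 in HF75. It differed by -1.33 (SE 0.53, limma adjusted p 0.635) and was lower in HF75 in 5 of 5 weeks. By week the brown adipocyte list had medians of -0.64, -0.43, -0.96, 1.02, 0.22 and -1.54. The general adipocyte list had -0.75, -0.77, -1.17, 1.74, 0.16 and -1.26. At Week 9 only the HF5 array had BAT in its title. Without Week 12 the medians of the brown and general adipocyte lists were -0.41 and -0.69. At Weeks 12 and 15, with a shared scan date, they were 0.69 and 0.95, of the opposite sign. The median of all genes was 1.42 at Week 12 and 0.08 at Week 15.

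Genes of lymphocytes are dim here, and a dim gene can pass the filter through the dose in which it is high, so each of these lists is also given over all its genes on the array, where 61.3% of all genes were higher. All 11 T cell genes tested were higher in HF75, with a median of 1.07, and over all 13 genes 12 were higher with a median of 1.0. Cd8b1, a chain of the coreceptor of cytotoxic T cells, had levels from -6.45 over -4.62 to -0.77 in HF5 and from -4.26 over -1.03 to 2.19 in HF75, a difference of 3.19 (SE 0.73, limma adjusted p 0.312). It was well above background on 3 of 6 HF5 arrays and 6 of 6 HF75 arrays, and higher in 5 of 6 weeks. Cd8a, the other chain of that coreceptor, differed by 1.00 (SE 0.59). Cd3e, a chain of the T cell receptor complex, differed by 1.34 (SE 0.56). All 5 natural killer and cytotoxic genes tested, of 8 listed, were higher, with a median of 1.46, but over all 8 it was 6 with a median of 0.84. Gzma, a granzyme, differed by 2.02 (SE 0.73), Klrb1c, a receptor of natural killer cells, by 1.59 (SE 0.45) and Nkg7, a granule protein, by 1.46 (SE 0.62). All 6 B cell genes tested, of 10 listed, were higher, with a median of 0.73, and over all 10 it was 9 with a median of 0.62. The medians of the genes tested were largest at Week 9, where they were 3.79, 4.65 and 3.76. There the HF5 array had BAT in its title and the HF75 array did not, and Week 6 had the opposite sign, with -1.33, -0.69 and -2.57. Without Week 9 the medians were 0.45, 0.82 and 0.11.

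**Figure D3:**
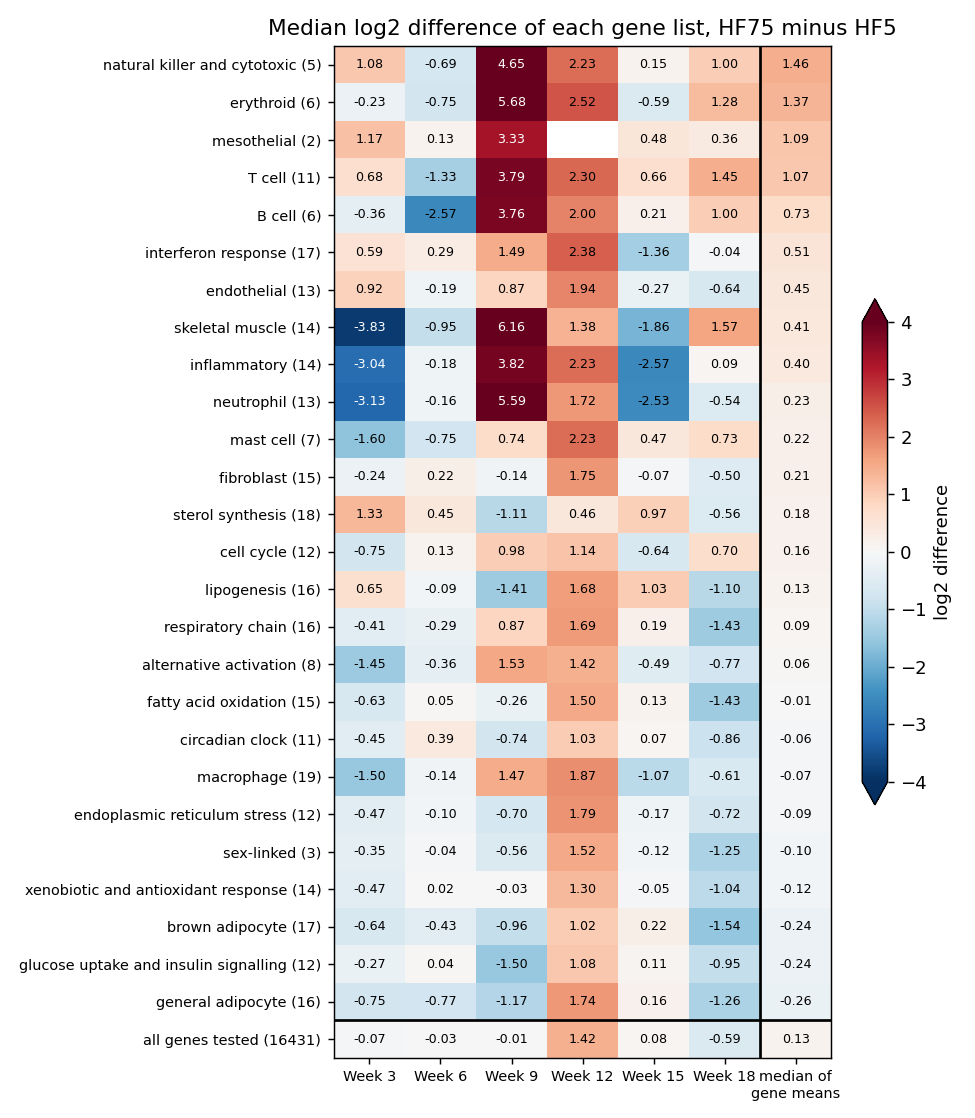
Each row is a gene list with its number of genes tested, each of the first 6 columns a week, and each cell the median log2 difference HF75 minus HF5 over the genes of the list, coloured from blue (lower) to red (higher), with the median of the gene means in the last column and all genes in the last row. Week 9 holds the largest values, up to 6.16 for skeletal muscle, Week 12 is positive in every list measured, and of the 26 lists only the mesothelial one, with 2 genes and no Week 12 value, keeps 1 sign over the weeks.

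Lists of neutrophils, muscle and inflammation differed in sign from week to week. The neutrophil list had weekly medians of -3.13, -0.16, 5.59, 1.72, -2.53 and -0.54. S100a8, a calcium-binding protein that neutrophils carry in bulk, had levels from -3.70 over 2.69 to 6.31 in HF5 and from -2.67 over 4.15 to 4.94 in HF75, a difference of 0.80 (SE 1.24). The skeletal muscle list, with genes of the contractile fibre such as Acta1 and Ckm, had medians of -3.83, -0.95, 6.16, 1.38, -1.86 and 1.57. On the HF5 array of Week 9 its median level was -2.90, below the 1.92 to 4.66 of the other HF5 arrays. The inflammatory list, which holds cytokines and chemokines, had medians of -3.04, -0.18, 3.82, 2.23, -2.57 and 0.09. Il1b, the cytokine interleukin-1 beta, ran from -4.89 over 0.51 to 6.88 in HF5 and from -5.22 over 2.55 to 4.63 in HF75, a difference of 0.76 (SE 1.48). All 3 medians were below 0 at Weeks 3, 6 and 15 and above 0 at Weeks 9 and 12. Without Week 9 their medians were -0.58, -0.65 and -0.72, against 0.23, 0.41 and 0.40 with it. The part of neutrophil or muscle RNA in other differences was not tested.

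The alternative activation list, with genes of macrophages that repair tissue, had 5 of 8 genes higher and a median of 0.06. The erythroid list had 6 of 6 genes tested higher, of 12 on the array, with a median of 1.37 that was 0.55 without Week 9. Over all 12 it was 9, with a median of 0.21. Of these 6, 1 or 2 were saturated on 9 of the 12 arrays. Alas2, which starts haem synthesis in red cells, differed by 1.71 (SE 0.86). The endothelial list had 12 of 13 higher with a median of 0.45, and the fibroblast list 13 of 15 higher with a median of 0.21. Mast cell genes were higher in 4 of 7 and had a median of 0.22. Of the mesothelial list only 2 of 8 genes could be tested, and both were higher, and over all 8 it was 6 with a median of 0.57.

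All 17 interferon response genes tested were higher in HF75, with a median of 0.51, against 61.4% of all genes. Ifit2, an antiviral protein that interferon induces, had levels from -3.95 over -3.01 to -0.87 in HF5 and from -3.49 over -1.33 to -0.07 in HF75. It differed by 1.16 (SE 0.46, limma adjusted p 0.620) and was higher in 5 of 6 weeks. Rsad2, the antiviral protein viperin, differed by 1.22 (SE 0.66) and Cxcl10, a chemokine that draws T cells, by 0.44 (SE 0.67). The weekly medians of 0.59, 0.29, 1.49, 2.38, -1.36 and -0.04 were positive at Weeks 3 to 12. At Week 15, where both titles carry BA and 1 scan date was used, the list was lower in HF75. Without Weeks 9 and 15 the list median was 0.73, and without Week 12 it was 0.21.

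**Figure D4:**
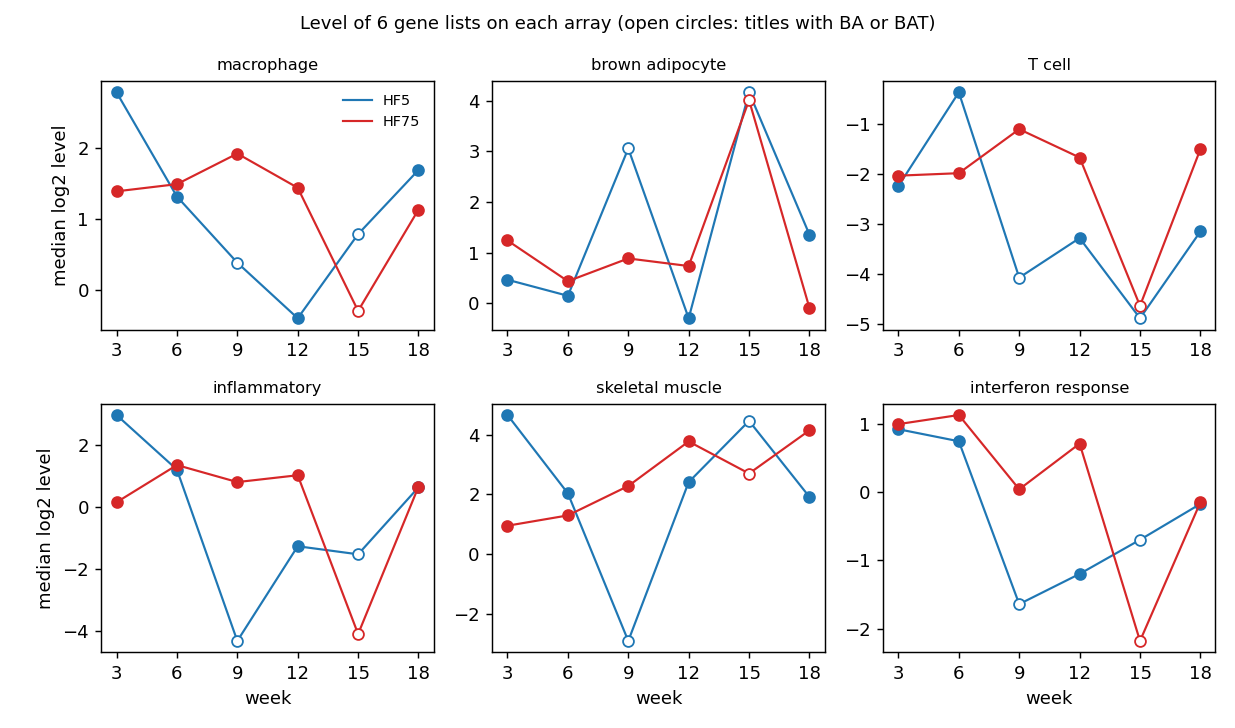
Each panel plots the median log2 level of a gene list (vertical axis) on every array against the week (horizontal axis) for HF5 (blue) and HF75 (red), with open circles for the 3 arrays whose titles hold BA or BAT. Those arrays are high in the brown adipocyte list and low in the T cell and inflammatory lists, and they are 2 of the 6 HF5 arrays and 1 of the 6 HF75 arrays.

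Lists of metabolism had medians from -0.24 to 0.18, beside 0.13 for all genes. Of the sterol synthesis list, 13 of 18 were higher, with a median of 0.18. Sqle, squalene epoxidase, had levels from -3.35 over -1.92 to 0.85 in HF5 and from -2.30 over -0.26 to 1.22 in HF75, a difference of 1.2 (SE 0.54, limma adjusted p 0.719). The list median was 0.46 at Week 12, where that of all genes was 1.42, and it was 1.33 at Week 3.

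Of the lipogenesis list, 12 of 16 were higher, with a median of 0.13. Scd2, a fatty acid desaturase, had levels from 0.34 over 1.73 to 4.61 in HF5 and from 1.39 over 3.28 to 5.31 in HF75, a difference of 1.34 (SE 0.52, limma adjusted p 0.610), and it was lower in HF75 only at Week 9. Scd1, the related desaturase, differed by -0.45 (SE 0.61), and Fasn, fatty acid synthase, by 0.59 (SE 0.53). The fatty acid oxidation list had 7 of 15 higher and a median of -0.01, with 9 or 10 of the 15 saturated on each bright array. The respiratory chain list had 11 of 16 higher and a median of 0.09, but 13 or 14 of its 16 genes were saturated on each bright array, so Week 9 and Week 15 hold bounds for it. Of the glucose uptake and insulin signalling list, 10 of 12 were lower, with a median of -0.24, and of the endoplasmic reticulum stress list also 10 of 12, with a median of -0.09. Hspa5, the chaperone BiP, differed by -0.53 (SE 0.48).

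The remaining lists gave similar values. Of the xenobiotic and antioxidant list, 7 of 14 were higher, with a median of -0.12. Hmox1, which degrades haem, differed by -1.29 (SE 0.75), and at Week 3 by -4.35. Mt2, a metallothionein, differed by -1.02 (SE 0.59). The circadian clock list had 5 of 11 higher and a median of -0.06. Of the cell cycle list, 9 of 12 were higher, with a median of 0.16. Bub1, a kinase of the spindle checkpoint, differed by 1.88 (SE 0.66) and Mcm2, of the replicative helicase, by -1.0 (SE 0.44). The 3 genes tested of the sex-linked list, Ddx3y, Eif2s3y and Kdm5d, differed by -0.10, -0.17 and -0.08.

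Because scent receptors appeared among the named genes, all chemosensory receptor genes (olfactory, vomeronasal and taste receptors) were counted, a list chosen after their values were seen and hence given with no test. These receptors are known from sensory neurons and taste cells. The array held 1354 of them, and 154 passed the filter. Of these 154, 150 were higher in HF75, with a median of 1.47, but a dim gene can pass the filter through the group in which it is high. Over all 1354 the median was 0.37 and 76.7% were higher, against 0.14 and 61.3% of all 29411 genes on the array. At Week 18, 411 of the 1354 were well above background in HF75 and 42 in HF5. At Week 15 the numbers were 589 and 316, and at Week 12 they were 277 in HF75 and 584 in HF5. At Week 9, 7.75% were well above background in HF75 and 25.7% in HF5. At Week 6 there were 104 and 91, and at Week 3 there were 140 and 94. The share of all genes well above background was higher at the same dose in each of the 6 weeks, as with 56.2% in HF75 and 36.1% in HF5 at Week 18 and 54.2% and 63.3% at Week 12. In the 154, the median level was highest, 0.59, on the HF75 array of Week 18 and lowest, -5.17, on the HF5 array of Week 15. The 3 brightest arrays were among the 4 lowest for these genes. Brightness therefore moved with them, though not on every array, as the dim HF5 arrays of Weeks 3 and 18 had medians of -2.42. The part of brightness in the difference was not tested.

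**Figure D5:**
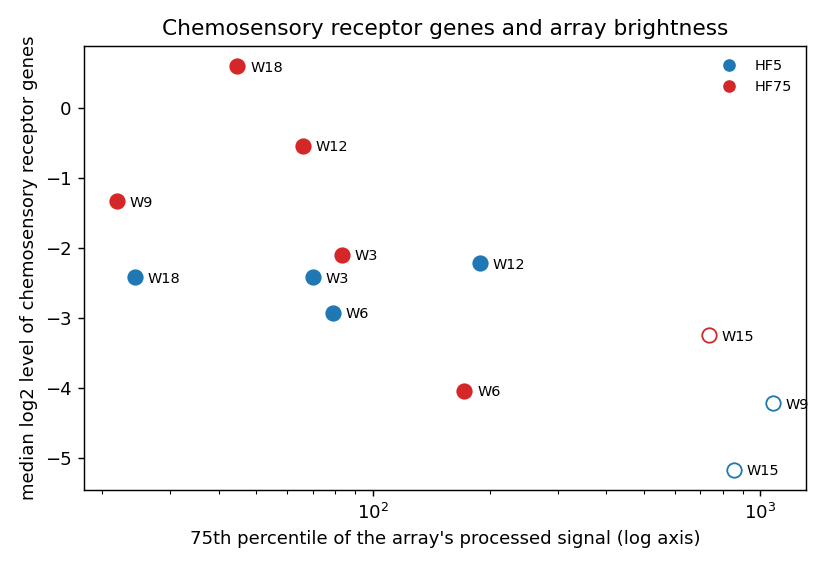
The vertical axis gives the median log2 level of the 154 chemosensory receptor genes that passed the filter, and the horizontal axis the 75th percentile of the array's processed signal on a log scale, for the 12 arrays labelled by week, HF5 in blue and HF75 in red, with open circles for titles with BA or BAT. The 3 open circles lie at the bright end between -5.17 and -3.25, and the HF75 arrays of Weeks 9, 12 and 18 lie at the dimmer end between -1.34 and 0.59. The HF5 arrays of Weeks 3 and 18, also at the dimmer end, lie at -2.42.

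The last question was whether the difference between the doses changed with time on the diet. With limma, 0 of 21756 probes (0%) had a slope of the difference over weeks with an adjusted p under 0.05, with 0.813 as the lowest adjusted p. Before adjustment, 1179 probes had p under 0.05, and by genes 4.72% had a slope above 0 and 0.913% a slope below 0 at that level. The count rested on the Week 9 pair, since 81 probes passed without it, all with a slope above 0, and with weights for array quality 353 passed. None of the genes named here passed in the fit of 12 arrays. Sorcs2, a sorting receptor of neurons, had weekly differences of -0.79, 0.06, -0.54, 1.90, 3.30 and 4.68, a slope of 0.38 per week (SE 0.09). Fcer1a, a chain of the IgE receptor of mast cells, had a slope of 0.42 (SE 0.11). Cel, a lipase, had a slope of 0.32 (SE 0.08), Sprr2g, of keratinizing skin, one of 0.35 (SE 0.09) and Sdk2, an adhesion molecule, one of 0.38 (SE 0.10). On the HF5 array of Week 18, Sorcs2 and Sprr2g shared a level of -3.15, and Fcer1a, Cel and Sdk2 had -3.08, -2.94 and -2.69. All lay below -0.83, the lowest signal well above background on that array, so these Week 18 differences start from HF5 levels near background.

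The 5 genes on the other side of 0 include genes known from contractile and matrix cells. Cnn1, calponin of smooth muscle, had weekly differences of 3.74, 0.06, 4.96, 0.82, -0.03 and -3.37, a slope of -0.38 (SE 0.13). Actc1, cardiac actin, had a slope of -0.36 (SE 0.11), Mgp, matrix Gla protein, one of -0.31 (SE 0.09) and Itga8, an integrin chain, one of -0.29 (SE 0.09). Inhba, which encodes a subunit of activin, had one of -0.33 (SE 0.09). In all 5 the difference was positive at Weeks 3 to 12 and below 0 at Week 18, and the level of Cnn1 was -0.54, -0.48 and -0.51 on the 3 arrays with BA or BAT in their titles, against 1.80 or more on the other 9.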

How the data were processed

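RNA was hybridised to Agilent 1-colour arrays of a custom mouse design. The authors deposited scanner output with a processed signal intensity per spot, already background-corrected, which per the file headers came from Feature Extraction. The submitters' processing notes name version 9.1. A deposited table of the whole series, normalized by the authors, holds log2 differences of the same arrays from 1 array per time point, as its values show, and served as an alternative.

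From the intensity, log2 was taken and the 75th percentile of each array subtracted. Control spots and spots marked as outliers were left out and the 43803 other spots averaged to 40628 probes. Probes well above background on 6 or more of the 12 arrays were tested in R 4.3.3 with limma 3.58.1 (statmod 1.5.0), with week as a block and Benjamini-Hochberg adjustment over all 21756 probes at 0.05. The block was the design because the doses were compared within weeks. Each gene was represented by the probe with the highest mean. A second fit tested the slope of the difference over weeks. The code was tested on simulated data. Spot saturation and the number of arrays, 1 per dose and week, limit the precision.

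Named genes were those with the smallest p among genes of 1 sign in all 6 weeks and well above background on 10 or more arrays, up to 10 each way, and for the slope the 5 genes each way with the smallest p under the same signal rule, of any sign, leaving out clone and predicted names, plus members of 26 gene lists. The arrays and lists were chosen with earlier results of these data known. The alternatives covered the block, background correction, normalization, filter, marked spots, array weights, moderation, scan date, weeks left out, all 39 arrays, the deposited table and the methods' t-test. Other diets entered only as reference levels, and days before Week 3 were not analysed here. A few genes that the rule or the lists name are not reported here.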

Additional observations from a re-analysis of the deposited data

Results flagged for a closer look

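In 93 groups of 6 arrays, each a named gene (40 groups) or a gene list (53 groups) at 1 dose, the extreme array was set against the other 5. In 11 groups, all of them lists, 1 array lay far from the rest. Chance marks about 1 group in 20.

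Of these arrays, 8 were the HF75 array of Week 15, whose title holds BA. Its median log2 level of the brown adipocyte list was 4.01, against -0.10 to 1.24 on the other HF75 arrays. For the macrophage list it was -0.29, against 1.13 to 1.92. Lymphocyte lists were low on it, with -4.64 for T cells, -3.73 for B cells and -5.49 for natural killer and cytotoxic genes. The mesothelial list stood at -6.28, the inflammatory list at -4.09 and the alternative activation list at -1.72.

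In HF5 the Week 9 array, with BAT in its title, had a skeletal muscle median of -2.90, against 1.92 to 4.66 on the others. The HF5 array of Week 12, on which 18.6% of spots were marked as outliers, had a median of 0.24 for endoplasmic reticulum stress genes, against 0.82 to 1.04, and of -1.58 for the sex-linked list, against 0.65 to 1.63.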

How the results depend on the processing

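For HF75 against HF5, 19 of 22 alternatives also gave 0 probes. The others gave 123 among probes well above background on all arrays, 327 without Week 6 and 86 at the 2 weeks of one scan date, of which 79 were higher and where limma gave all probes 1 shared variance. Leaving out each week in turn gave 0 to 327 probes, and for the slope 0 to 81. The slope gave 353 probes with array weights and 71 without Weeks 9 and 15, and 0 in 13 of 16 alternatives. Without the replicate block 0 probes passed, with 614 at an unadjusted p under 0.05, and the methods' t-test gave 451 at that level and 0 after Benjamini-Hochberg adjustment. Same-week arrays deviated together with correlations of 0.11, 0.56, -0.30, 0.48, 0.85 and 0.40, so the weeks do not pair every array.

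Of the unadjusted calls, 89.1% were higher in HF75, against 70.3% when centred on probes well above background on all arrays, 99.8% with normexp, 62.1% with array weights and 67.2% without Week 12. The median of all genes was 1.42 at Week 12 and 0.08 at Week 15, the 2 weeks of one scan date. Over these weeks the medians of the brown adipocyte, general adipocyte and circadian clock lists were 0.69, 0.95 and 0.70. The cause was not tested. None of the 20 genes picked by the rule for named genes reversed in direction in the alternatives run. That rule required the same sign in every week, so leaving out weeks could not reverse them and does not test their direction. Alternatives that changed the levels, such as background correction and normalization, could have reversed them and did not. The members of lists and the slope genes were not rerun one by one. Dim probes and saturation on the 3 bright arrays limit what could be measured.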

Other observations

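The 123 probes that passed among those well above background on all 12 arrays belonged to 118 genes, with differences of 1.72 to 3.72. These genes were picked after their values were seen. Ugt2b37, a glucuronosyltransferase, differed by 3.57 (SE 0.51, limma adjusted p 8.91e-06, against 0.305 among all probes tested). Pfas, of purine synthesis, differed by 3.30 (SE 0.50) and Myo15b, an unconventional myosin, by 3.27 (SE 0.51). Others among the 118 were Gabra5, a GABA receptor chain, with 2.87 (SE 0.52), Abcc8, the sulfonylurea receptor, with 2.81 (SE 0.51), and Oxt, oxytocin, with 2.33 (SE 0.50). Ptpn6, Flna and Cav1 were also among them, and classes of genes were not counted. Of these 123 probes, 86 also passed without Week 6, a fit that used only arrays of the same 12 and so is no separate check. The variance prior of limma had 75.0 degrees of freedom among probes well above background on all 12 arrays. In the fit of all probes tested it had 7.61.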
